A study of Rattus norvegicus with 36 samples.

Results

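The lungs of rats kept in chronic hypoxia under a control antibody were compared with the lungs of rats kept in normoxia, across all measured genes. The 24 libraries are those that the deposited information sheet places in the arm of hypoxia with IgG (12 libraries, 6 of males and 6 of females) and in the normoxic arm (12 libraries, 6 and 6), of 36 in the series. The hypoxic rats breathed 10% oxygen at normal pressure for 2 weeks and received control IgG at 10 mg/kg into the peritoneum, first 48 h before hypoxia and then every 3 days. The normoxic labels name no antibody, so the effects of hypoxia and of IgG cannot be told apart. All rats were adults of 200 to 240 g on a Sprague Dawley background, and all of them, normoxic ones included, carried the HuSlc39a12 genotype, in which the human form of Slc39a12 stands in place of the rat gene. Slc39a12 encodes the zinc importer ZIP12, which the series studies in pulmonary hypertension. The labels do not tie every library to an animal of its own, so a p-value here measures spread among libraries, which may be technical.

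Alveolar hypoxia narrows the small pulmonary arteries. When it lasts, smooth muscle extends along vessels that had little of it, the vessel wall gains matrix, and pulmonary arterial pressure rises. Endothelial cells of arteries, capillaries and lymphatics differ in the receptors and ligands they make, and they signal to the smooth muscle and pericytes around them. Cells sense low oxygen through hypoxia-inducible factors, which bind a short core sequence in DNA and raise genes of glycolysis and vessel growth.

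The libraries held 8.06 to 18.1 M counts in the IgG arm (median 10.2 M) and 6.53 to 20.8 M in normoxia (median 11 M). Markers of alveolar type I and type II cells and of endothelium had counts in all 24 libraries, as lung should. The first principal component, with 28.5% of the variance, ran from −28.8 to 2.23 in the IgG arm and from −4 to 51.4 in normoxia, so the arms overlapped. Female normoxia 9 lay at 51.4 and stood apart in its tissue markers too: its summed type II cell markers were 42781 CPM (read counts scaled to library size), followed by 32544 CPM in female normoxia 8 and at most 23901 CPM in the other 22 libraries. Adipocyte markers summed to 163 to 1052 CPM in the IgG arm (median 211) and 94 to 298 CPM in normoxia (median 140), and cardiac muscle markers to 95 to 1376 CPM and 14.1 to 361 CPM, with male IgG 6 highest in both. Male IgG 4, 5 and 6 and female IgG 7 stood apart in circadian clock genes, described further on. Sequencing runs were inferred from codes in the read file names of the information sheet, and no label used here says what those codes mean. The runs so inferred were uneven between arms. Run A held 7 IgG libraries (5 male, 2 female) and 9 normoxic ones (6 male, 3 female). Run B held 5 and 2, and run C held female normoxia 8. Slc39a12 itself (rCG_55714) was at 0 counts in each of the 24 libraries. By counting error alone that leaves room for 0.144 to 0.46 CPM, depending on the library. No source used here says whether human Slc39a12 reads would fall in this entry, so it does not check the genotype.

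Of 15144 genes tested, 1616 changed (10.7%), of which 847 were higher (5.59%) and 769 lower (5.08%) in the IgG arm. Changed or called means an FDR (the Benjamini-Hochberg adjusted p of edgeR's quasi-likelihood test, with sex as a term) under 0.05. Most changes were small: the median size among called genes was 0.44 on the log2 scale, and 164 genes (1.08%) passed 2-fold, 120 of them higher (0.792%) and 44 lower (0.291%). In 117 genes (0.773%) no IgG library overlapped any normoxic library, with 91 higher (0.601%) and 26 lower (0.172%). The median log2 change over all tested genes was −0.02. In a bulk library, more cells of a type and more RNA per cell cannot be told apart, which holds for every gene below. The 1197 genes called without male IgG 4, 5 and 6 and female IgG 7 included 1066 of the 1616, and run A alone called 579, of which 557 were shared.

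The largest rises without overlap, among genes with a symbol, began with Slc26a10 and Mycn. Slc26a10 (rCG_59461), of a family of anion transporters, had 13.8 to 48.8 CPM (median 22.8) in IgG libraries and 0.0528 to 2.81 CPM (median 1.47) in normoxic ones, a log2 fold change of 4.33 ± 0.25 (SE, FDR = 2.9e-12). Mycn (rCG_62224), a growth-promoting transcription factor, had 7.27 to 24.5 CPM (median 15.8) in IgG libraries and 0.766 to 3.64 CPM (median 1.55) in normoxia (3.08 ± 0.24, FDR = 9.8e-10). Both genes were low in normoxia and clearly present in each IgG library. Mycn was lowest in the IgG libraries that stood apart in clock genes. Male IgG 4, 5 and 6 had 7.27, 9.68 and 7.36 CPM of it, and female IgG 7 had 11 CPM. The other IgG libraries had 14.4 to 24.5 CPM of Mycn.

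A pair of sodium channel genes followed at far higher levels. Scn3b (rCG_58317), an auxiliary subunit of voltage-gated sodium channels, stood at 364 to 514 CPM (median 446) in IgG lungs and 61.5 to 120 CPM (median 91.5) in normoxic lungs (log2 2.36 ± 0.10, FDR = 3.7e-15). Scn7a (rCG_27408), a sodium channel known as a sensor of extracellular sodium, stood at 654 to 1061 CPM (median 962) and 109 to 337 CPM (median 249) in IgG and normoxic lungs (1.91 ± 0.14, FDR = 4.6e-10). The lowest IgG library of each gene lay well above the highest normoxic library, and the spread of Scn3b within the IgG arm was narrow.

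The other rises of this kind included the collagen-binding integrin subunit Itga2 (log2 1.69 ± 0.15), the intermediate filament nestin, Nes (1.55 ± 0.19), the platelet-derived growth factor ligand Pdgfd (1.53 ± 0.10) and the Notch ligand Jag2 (1.28 ± 0.14). Col15a1, a basement membrane collagen (1.28 ± 0.13), Plcb1, a phospholipase C (1.16 ± 0.09), Emcn, a sialomucin of endothelium (1.16 ± 0.11), and the ephrin receptor Epha4 (1.15 ± 0.15) completed the 12. Pdgfd (rCG_31616) ran from 34.1 to 74.8 CPM (median 52.5) in IgG libraries and from 15 to 22 CPM (median 17.4) in normoxia.

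Among the falls, Npr3 (rCG_23642), the receptor that clears natriuretic peptides, had 6.11 to 29 CPM (median 19.1) in IgG libraries and 54.6 to 177 CPM (median 115) in normoxic ones (log2 −2.61 ± 0.23, FDR = 1.1e-08). Lyve1 (rCG_40332), a hyaluronan receptor of lymphatic endothelium and of some tissue macrophages, had 38.9 to 129 CPM (median 62.4) in IgG libraries, against 305 to 551 CPM (median 438) in normoxia (−2.60 ± 0.17, FDR = 5.0e-11). Esm1 (rCG_44604), a tip cell proteoglycan of endothelium, had 18.7 to 36 CPM (median 26.7) and 63.9 to 136 CPM (median 106) in IgG and normoxic libraries (−1.91 ± 0.12, FDR = 1.0e-11). All of these were picked for having no overlap, so the separation of their arms is no further result.

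The remaining falls without overlap were smaller. They took in the endothelial lectin Clec14a (−0.98 ± 0.07), the nucleoside transporter Slc29a1 (−0.92 ± 0.08), the serotonin transporter Slc6a4 (−0.90 ± 0.10), the general transcription factor subunit Taf11 (−0.84 ± 0.06) and the peptide ligand apelin, Apln (−0.84 ± 0.08). The uridine phosphorylase Upp1 (−0.70 ± 0.11), Ddah1, which degrades inhibitors of nitric oxide synthase (−0.69 ± 0.07), and the alarmin Il33 (−0.68 ± 0.08) were among the others. Taf11 shows how even a modest fall could be: it had 26.1 to 32.9 CPM in IgG libraries and 40.8 to 60.6 CPM in normoxia.

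**Figure D1:**
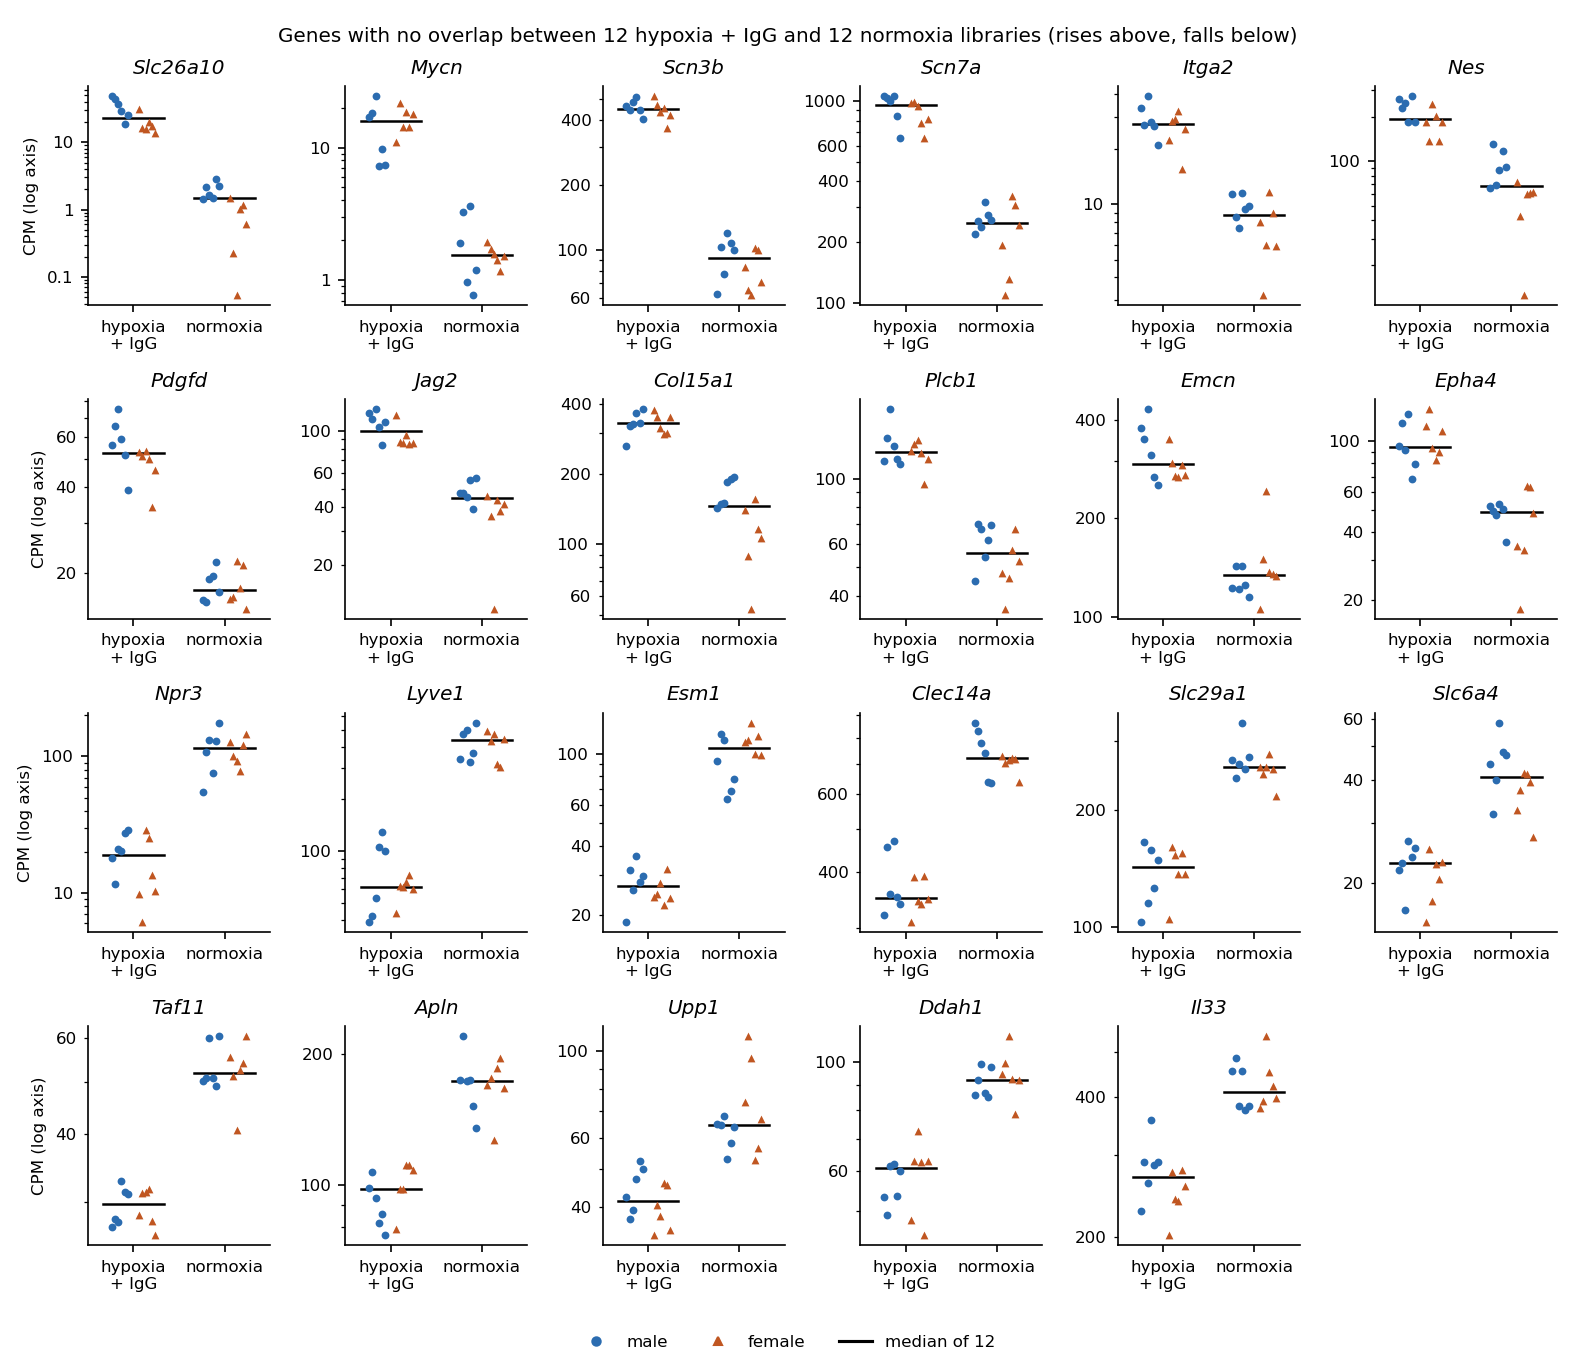
Levels of the 12 largest rises and 11 of the 12 largest falls among genes with a symbol and without overlap, in CPM on a log axis, with 1 point per library (circles males, triangles females), hypoxia with IgG at the left and normoxia at the right of each panel. In every panel the 12 IgG points lie wholly above (upper 2 rows) or wholly below (lower 2 rows) the 12 normoxic points, and the lines mark medians.

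By the difference in mean CPM rather than by fold, Sparc rose most and Selenop fell most among genes with a symbol. The matrix glycoprotein Sparc had 3404 to 4969 CPM (median 3969) in IgG libraries and 2350 to 3781 CPM (median 2538) in normoxia (log2 0.55 ± 0.07), followed by Col4a1, Col4a2, Col3a1, Scn7a and Eln. Selenop, the plasma carrier of selenium, fell to 2101 to 3090 CPM (median 2649) in IgG libraries, against 3228 to 6917 CPM (median 3671) in normoxia, with no overlap (−0.56 ± 0.10, FDR = 2.7e-04). Sftpa1, a surfactant protein of type II cells (−0.33 ± 0.10, FDR = 0.0421), Ace (−0.60 ± 0.07), Plvap (−1.05 ± 0.12), the ceramidase Acer2 (−1.17 ± 0.18) and Sec14l3 (−0.34 ± 0.07) made up the other 5 falls. The Sftpa1 call was the least firm of these: it was lost in 19 of the 24 fits that leave out 1 library. Female normoxia 9 and 8, which stood apart in type II markers, had 10302 and 7504 CPM of it, and the other 10 normoxic libraries had 4081 to 6117 CPM.

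Lists of pathway and cell type genes, 70 in all, were described by their counts and medians, to be read against the 5.59% higher, 5.08% lower and median −0.02 of all tested genes. Of these 70 lists, 13 had called members that were higher only, 15 lower only, 31 in both directions and 11 had none. List members without an entry under a current symbol, or under the low-count filter, were not tested, so a list may lack well-known members.

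**Figure D2:**
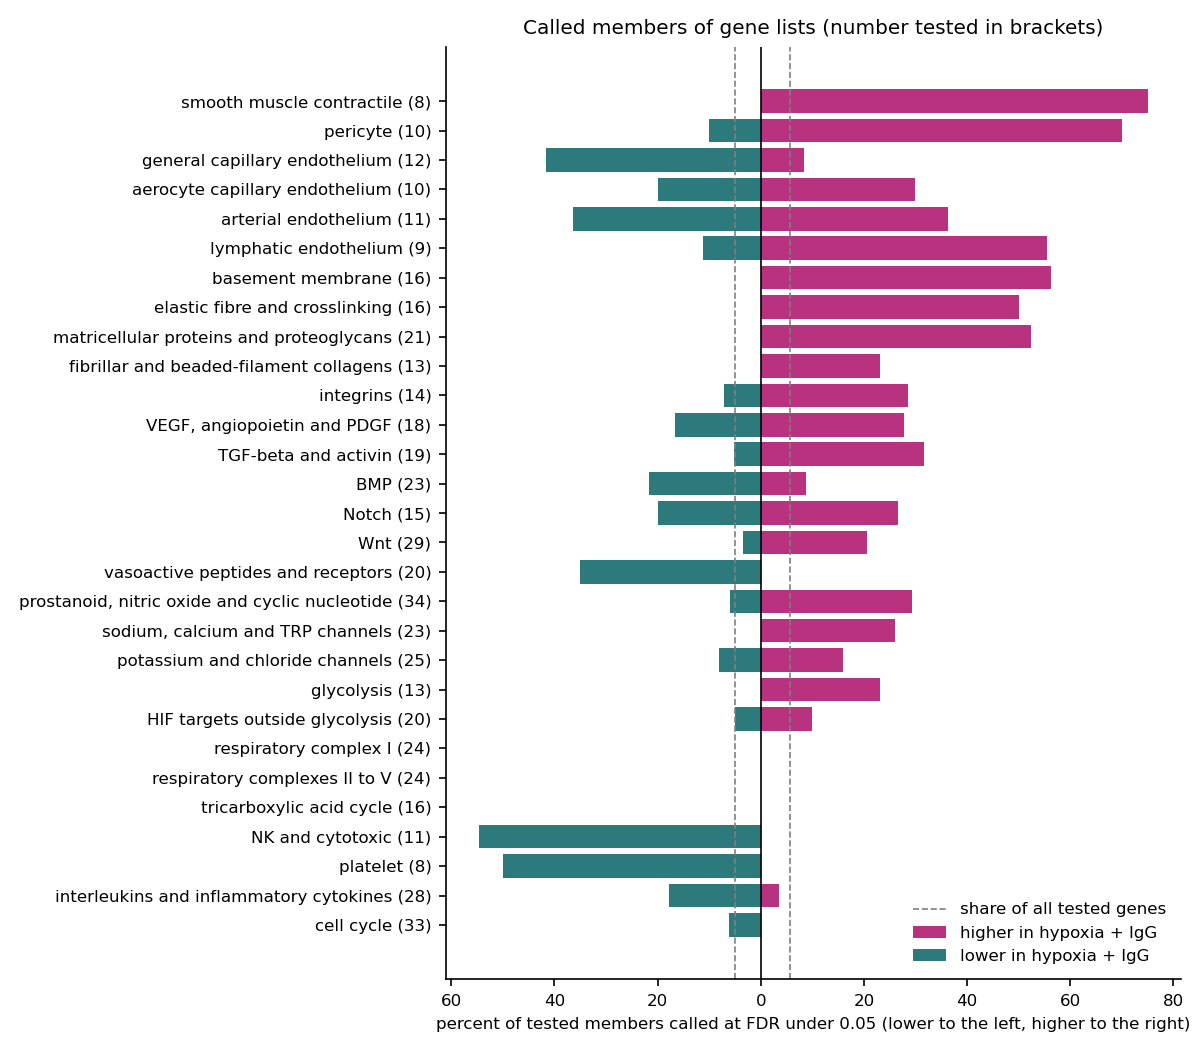
Share of tested members called at an FDR under 0.05 in 29 gene lists, in percent, higher in hypoxia with IgG to the right and lower to the left, with the number tested in brackets and dashed lines at the shares of all tested genes (5.59% higher and 5.08% lower). Contractile, pericyte and matrix lists extend to the right, vasoactive, NK and platelet lists to the left, and the respiratory and tricarboxylic acid lists have no bar.

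Endothelial genes changed in both directions, and the counts differed from one compartment's markers to the next. Of 12 general capillary markers 1 was higher and 5 were lower, with a median of −0.32, whereas of 9 lymphatic markers 5 were higher and 1 was lower, with a median of 0.49. Arterial markers split 4 and 4 of 11 (median −0.26), and aerocyte markers, those of the gas-exchange capillary cell, split 3 higher and 2 lower of 10 (median −0.02). Of 19 genes shared by all endothelium, 7 were higher and 5 lower, and their summed level was 7530 to 9531 CPM (median 8110) in IgG libraries and 6800 to 8875 CPM (median 8127) in normoxia. The sum thus covered about the same range in both arms while its members moved apart.

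In the general capillary list the falls were Npr3, Plvap, Tek, Ptprb and Lpl. Plvap (rCG_38785), which forms the diaphragms of endothelial openings, had 354 to 636 CPM (median 503) in IgG libraries and 454 to 1331 CPM (median 1072) in normoxia (FDR = 3.6e-07), and female normoxia 9, at 454 CPM, was the only normoxic library within the IgG range. Tek, the angiopoietin receptor, fell by 0.63 ± 0.08 (FDR = 3.0e-06), and Ptprb, the phosphatase that restrains it, fell by 0.67 ± 0.12 (FDR = 3.4e-04), both on the log2 scale. The single rise was Sema3c, a secreted guidance factor, at 884 to 1209 CPM (median 983) in IgG lungs and 424 to 640 CPM (median 534) in normoxic lungs, without overlap (log2 0.90 ± 0.07, FDR = 1.5e-09).

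Arterial markers that rose were the gap junction gene Gja4 (log2 1.07 ± 0.11), the chemokine Cxcl12 (0.71 ± 0.06), Tm4sf1 (0.53 ± 0.13) and the Notch ligand Jag1 (0.26 ± 0.07), and those that fell were Bmx, Dll4, Hey1 and Efnb2. Gja4 (rCG_31029) had 61.9 to 133 CPM (median 96.8) in IgG libraries and 27.2 to 55.5 CPM (median 44.7) in normoxia. Cxcl12 (rCG_30074) had 188 to 302 CPM (median 237) and 132 to 174 CPM (median 147) in the IgG and normoxic arms. Neither gene overlapped between the arms. In run A alone 3 arterial markers were higher and none was lower.

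The lymphatic list was led downward by Lyve1, yet its other called members rose. Prox1, the transcription factor that sets lymphatic identity, rose by 0.90 ± 0.19 (FDR = 0.00224), the chemokine Ccl21 by 0.80 ± 0.12 (FDR = 5.6e-05), Reln by 0.68 ± 0.15, Fxyd6 by 0.54 ± 0.09 and Tbx1 by 0.49 ± 0.11. Ccl21 (rCG_54936) had 130 to 301 CPM (median 178) in IgG libraries and 84.2 to 145 CPM (median 106) in normoxia. Run A alone called 3 lymphatic markers higher and Lyve1 lower. Rat Ccl21 may have near-identical copies, so its count is uncertain. Because Lyve1 is also made by interstitial macrophages, the list of those cells was counted as well. Of 13 tested members 3 were lower (Lyve1, Ace and Cd14) and none was higher, with a median of −0.13. Lyve1 is itself 1 of the 3, and Ace is also in the vasoactive list, so the count is no separate measure of macrophages. Cd14, the monocyte co-receptor for endotoxin, fell by 0.45 ± 0.10 (FDR = 0.00458), with 50 and 48.8 CPM in female normoxia 8 and 9. The other normoxic libraries had 23.6 to 35 CPM, and Cd14 was not called within males (FDR = 0.651). The part of macrophages in the Lyve1 change was not tested.

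**Figure D3:**
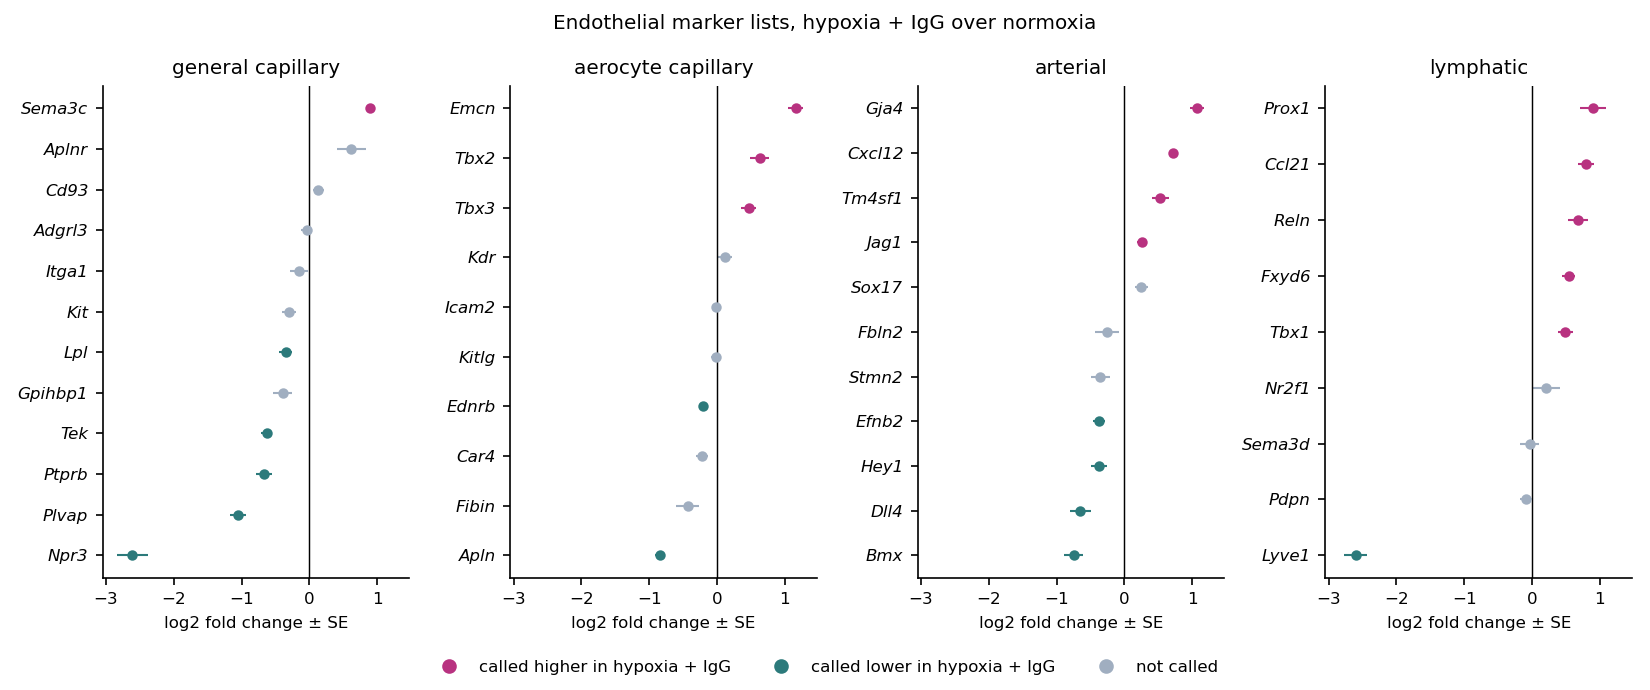
Log2 fold change with its SE, hypoxia with IgG over normoxia, of each tested marker of general capillary, aerocyte, arterial and lymphatic endothelium, coloured by whether it was called higher, lower or neither. Lyve1 and Npr3 lie furthest to the left in their panels, at −2.60 and −2.61, while the other called lymphatic markers lie between 0.49 and 0.90.

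Most of the contractile genes of smooth muscle that could be tested were higher. Of 15 in the list only 8 had an entry under a symbol. Of these 8, 6 were higher and none was lower, with a median of 0.64. The contractile sum was 1231 to 1636 CPM (median 1402) in IgG libraries and 579 to 1386 CPM (median 1171) in normoxia. Myl9, a myosin light chain, had 143 to 248 CPM in IgG libraries (median 173) and 55 to 127 CPM in normoxia (median 105), without overlap (log2 0.88 ± 0.10, FDR = 2.7e-07). The calponin Cnn1 (0.82 ± 0.17), the potassium channel subunit Kcnmb1 (0.74 ± 0.10), desmin, Des (0.70 ± 0.15), the actin Actg2 (0.57 ± 0.13) and leiomodin, Lmod1 (0.55 ± 0.15), were the others. Mylk and Itga8 did not pass the test (0.14 ± 0.11 and 0.23 ± 0.13). The lowest sum was that of female normoxia 9. Without female normoxia 8 and 9 the list had 6 genes called, and in run A alone 2. In males alone the sums overlapped, at 1231 to 1569 CPM in IgG males and 1154 to 1386 CPM in normoxic males. The test within males called Myl9 (FDR = 5.8e-04) and Kcnmb1 (FDR = 0.00529) but not Cnn1 (FDR = 0.402) or Actg2 (FDR = 0.759).

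Pericyte markers gave 7 higher and 1 lower of 10, with a median of 0.44. The receptor-operated calcium channel Trpc6 (rCG_31778) had 20.3 to 32 CPM (median 26.4) in IgG libraries and 12.6 to 19.2 CPM (median 15.7) in normoxia, without overlap (log2 0.77 ± 0.09, FDR = 4.2e-07). Notch3, the Notch receptor of mural cells (0.74 ± 0.16), Higd1b (0.53 ± 0.09), the potassium channel Kcnj8 (0.47 ± 0.11), the lung isoform of a cytochrome oxidase subunit, Cox4i2 (0.46 ± 0.07), and the nitric oxide receptor subunit Gucy1b1 (0.43 ± 0.08) rose too. Rgs5, a regulator of G protein signalling much used as a pericyte marker, fell by 0.55 ± 0.10 (FDR = 5.7e-04), and its fall depended on sex, as described below.

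Genes of the structural matrix were higher where they changed. Among them, 9 of 16 basement membrane genes, 8 of 16 elastic fibre and crosslinking genes and 11 of 21 matricellular and proteoglycan genes were higher, and none was lower in any of the 3, with medians of 0.37, 0.33 and 0.36. Col4a1 (rCG_43378) and Col4a2 (rCG_43142), the chains of the main basement membrane collagen, stood at 1650 to 2932 CPM (median 2247) and 1111 to 1798 CPM (median 1502) in IgG libraries. In normoxia they stood at 345 to 1662 CPM (median 1065) and 162 to 1159 CPM (median 735), so the arms of each gene overlapped only at their edges (log2 1.17 ± 0.14 and 1.09 ± 0.17). The laminin chain Lama2 rose by 0.64 ± 0.10 and Lama4 by 0.47 ± 0.09, while Lama3 (−0.14 ± 0.10) and Col4a3 (−0.14 ± 0.10), chains of epithelial basement membrane, did not pass the test.

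Of the elastic fibre genes, elastin, Eln (rCG_21256), had 496 to 1827 CPM (median 1319) in IgG libraries and 153 to 1130 CPM (median 655) in normoxia (log2 0.97 ± 0.24, FDR = 0.0077). Eln was called within females (log2 1.48, FDR = 0.0031) and not within males (0.50, FDR = 0.572), and the difference between sexes did not pass the test (FDR = 0.308). The IgG males were split. Male IgG 1, 2 and 3 had 1827, 1742 and 1594 CPM, and male IgG 4, 5 and 6 had 917, 496 and 867 CPM. Normoxic males had 474 to 1130 CPM. The FDR of Eln over both sexes reached 0.0713 among the alternatives, and its lowest value, 153 CPM, was that of female normoxia 9. Fbln5 (0.46 ± 0.08) and Efemp2 (0.39 ± 0.07), which assemble the fibre, and the crosslinking enzyme Loxl2 (0.59 ± 0.11) were called with Eln. Among matricellular genes Aspn, a small proteoglycan (0.98 ± 0.13), and the large proteoglycan Vcan (0.84 ± 0.15) moved furthest of those named. The gelatinase Mmp2 rose less (0.33 ± 0.07).

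Fibrillar collagens were less even. Only 3 of 13 were higher, with a median of 0.34: Col1a1 (0.85 ± 0.24, FDR = 0.024), Col1a2 (0.70 ± 0.18, FDR = 0.0131) and Col3a1 (0.52 ± 0.15, FDR = 0.0256). Col1a1 (rCG_33732) had 537 to 1371 CPM (median 653) in IgG libraries and 72.3 to 801 CPM (median 443) in normoxia, so the ranges overlapped. The count of 3 was 0 in run A alone and 0 without male IgG 4, 5 and 6 and female IgG 7, 1 without male IgG 6 and female IgG 11, and 4 without female normoxia 8 and 9. Leaving out the same 4 IgG libraries left 5 basement membrane, 7 elastic fibre and 7 matricellular genes higher, and run A alone left 5, 3 and 4. Without female normoxia 8 and 9, as with limma, 2 basement membrane genes and 1 matricellular gene were lower.

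Genes of growth factor pathways changed in both directions. These are RNA levels, and signalling itself was not measured. In the list of vascular growth factors 5 of 18 were higher and 3 lower. Pdgfb (rCG_59494), the ligand that recruits mural cells, had 181 to 276 CPM (median 238) in IgG libraries and 68.5 to 151 CPM (median 112) in normoxia, without overlap (log2 1.09 ± 0.10, FDR = 1.2e-08). Pdgfd has been given above, and the receptor Tie1 (0.50 ± 0.10), Angpt2 (0.38 ± 0.09) and Nrp1 (0.35 ± 0.10) rose with them. Vegfa, the main vascular growth factor, had 978 to 1339 CPM (median 1185) in IgG libraries and 586 to 1387 CPM (median 1233) in normoxia, a log2 fold change of 0.02 ± 0.10 (FDR = 0.916), and its receptor Kdr gave 0.12 ± 0.11. The receptor Flt1 fell by 0.48 ± 0.08. Run A alone called 2 of the list higher and 3 lower.

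In the TGF-beta list 6 of 19 were higher and 1 lower (median −0.01). Follistatin, Fst (rCG_44843), a secreted activin inhibitor, had 11.1 to 36.3 CPM (median 27.2) in IgG libraries and 4.1 to 13.9 CPM (median 9.73) in normoxia (log2 1.48 ± 0.18, FDR = 1.3e-06). The receptor Tgfbr2 (0.40 ± 0.05) and the ligands Tgfb3 (0.64 ± 0.13) and Tgfb1 (0.28 ± 0.08) rose, and the co-receptor Tgfbr3 fell by 0.37 ± 0.11. The BMP list leaned the other way, with 2 higher and 5 lower of 23 (median −0.10). Its inhibitor Smad6, itself a target of BMP signalling, fell by 0.74 ± 0.11 and the endothelial co-receptor Eng by 0.42 ± 0.08, the ligand Bmp2 rose by 0.97 ± 0.17, and the receptor Bmpr2 did not pass the test (−0.25 ± 0.11, FDR = 0.156). Without male IgG 4, 5 and 6 and female IgG 7 the BMP count was 1 higher and 2 lower.

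Notch genes gave 4 higher and 3 lower of 15. The ligands Jag2 and Jag1, the receptor Notch3 and the modifying enzyme Mfng rose, while the ligand Dll4 (−0.65 ± 0.15) and the target genes Hes1 (−0.44 ± 0.09) and Hey1 (−0.38 ± 0.12) fell. Jag2 (rCG_27655) had 84.5 to 129 CPM (median 99.3) in IgG libraries and 11.9 to 56.8 CPM (median 44.6) in normoxia. Ligands of a single family thus moved in opposite directions. In the Wnt list 6 of 29 rose and 1 fell, led by the ligand Wnt5b at 27.3 to 44.4 CPM (median 35.7) in IgG libraries and 4.44 to 22.8 CPM (median 17.2) in normoxia (1.10 ± 0.14), with Lef1 (0.58 ± 0.14), Wnt5a (0.52 ± 0.12) and Wnt11 (0.48 ± 0.14). Run A alone called 1 Notch gene higher, 1 lower and 1 Wnt gene higher, and without female normoxia 8 and 9, or with limma, 6 Wnt genes were higher and 5 lower. Igf2, an insulin-like growth factor, rose by 1.27 ± 0.12 to 7.2 to 21.8 CPM, against 3.32 to 8.81 CPM in normoxia.

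Vasoactive peptides and their receptors were mostly lower where they changed. Of 20 tested, 7 were lower and none was higher: Npr3, Cnr1, Edn1, Apln, Ace, Ece1 and Ednrb, although the median of the list was 0.09 and DESeq2 called 2 higher. Edn1 (rCG_44111), the endothelin precursor, had 42.4 to 99 CPM (median 65.1) in IgG libraries and 96.5 to 250 CPM (median 156) in normoxia, overlapping only at the edge (log2 −1.27 ± 0.15, FDR = 7.7e-07). Ece1, the enzyme that processes endothelin (−0.31 ± 0.09), and its receptor Ednrb (−0.21 ± 0.06) fell less, and the other receptor Ednra gave 0.24 ± 0.13 (FDR = 0.239). Ace, which makes angiotensin II, had 1017 to 1654 CPM (median 1257) and 1644 to 2440 CPM (median 1889) in IgG and normoxic lungs. The cannabinoid receptor Cnr1 fell by 1.52 ± 0.20.

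Genes of the prostanoid, nitric oxide and cyclic nucleotide pathways were mostly higher where they changed, with 10 higher and 2 lower of 34 (median 0.09), and 5 and 1 in run A alone. Nos3, the endothelial nitric oxide synthase, had 38.5 to 85.5 CPM (median 58.9) in IgG libraries and 12.7 to 49.4 CPM (median 35.2) in normoxia (log2 0.80 ± 0.13, FDR = 0.0001). The prostacyclin receptor Ptgir (0.53 ± 0.12) and the thromboxane receptor Tbxa2r (0.84 ± 0.14), which act on the vessel in opposite ways, both rose. Hpgd, which breaks down prostaglandins, fell by 0.77 ± 0.11. The phosphodiesterase Pde5a, which degrades cyclic GMP, gave 0.17 ± 0.09 (FDR = 0.22).

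Adrenergic, serotonin and purine receptors and related genes split as well: of 18 genes 3 rose and 4 fell. The purine receptor P2ry2 rose by 0.91 ± 0.08 and the beta adrenoceptor Adrb1 by 0.98 ± 0.12, while Slc6a4, Maob (−0.53 ± 0.07), which degrades amines, and the serotonin receptor Htr2b (−0.85 ± 0.21) fell. Slc6a4 (rCG_33851) had 15.4 to 26.6 CPM (median 22.8) in IgG libraries and 27.2 to 58.6 CPM (median 40.7) in normoxia.

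Cation channels rose where they changed, with 6 of 23 sodium, calcium and TRP channel genes higher and none lower: Scn3b, Scn7a, Trpc6, Cacna2d3, Cacna1h and Cacna1c. Cacna1c, the pore of the L-type calcium channel of smooth muscle, gave 0.44 ± 0.14 (FDR = 0.0489), close to the threshold. Run A alone called 3 of the list. Of 25 potassium and chloride channel genes 4 rose and 2 fell. Kcnk3, a background potassium channel, rose by 0.78 ± 0.17 (FDR = 0.0031), with 13.3 to 30.3 CPM (median 19.8) in IgG libraries and 2.64 to 19.2 CPM (median 11.3) in normoxia, while Kcna5 did not pass the test (0.70 ± 0.28, FDR = 0.108). The 30.3 CPM of Kcnk3 was that of male IgG 6 and the 2.64 CPM that of female normoxia 9. Kcnk3 was called within females (FDR = 0.0166) and not within males (FDR = 0.175), and the difference between sexes did not pass (FDR = 0.735). Its FDR over both sexes reached 0.147 among the alternatives.

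The list of hypoxia-inducible factor targets outside glycolysis had called members in both directions after 2 weeks. Of 20 tested 2 were higher (Pdk1 and Hif1a) and 1 was lower (Angptl4), with a median of 0.01. Hif1a encodes a subunit of the factor itself and is not a classical target. Among all tested genes 5.59% were higher and 5.08% lower, and leaving out 1 library gave 1 to 5 of the list higher. Of 13 glycolysis genes 3 were higher (Aldoc, Pfkl and Eno2), with a median of 0.17. Run A alone called 1 of these higher, and 5 were higher with limma or without female normoxia 8 and 9. Aldoc (rCG_35551), an aldolase, had 7.09 to 15.6 CPM (median 9.19) in IgG libraries and 3.06 to 6.04 CPM (median 4.53) in normoxia, without overlap (log2 1.12 ± 0.13, FDR = 1.3e-06). Pdk1, a kinase that keeps pyruvate out of mitochondria, had 27.1 to 45.2 CPM (median 31.4) and 18.1 to 31.1 CPM (median 23.4) in IgG and normoxic libraries (0.45 ± 0.09). The call of Hif1a (0.17 ± 0.05, FDR = 0.0481) was lost in 18 of the 24 fits that leave out 1 library. None of 24 genes of respiratory complex I, 24 of complexes II to V and 16 of the tricarboxylic acid cycle was called in edgeR or DESeq2, with 0 in each at an unadjusted p under 0.05 and medians of −0.01, −0.04 and −0.03, and 1 gene of the cycle was called without male IgG 6 and female IgG 11.

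Promoters of 4 of these genes are shown, because Aldoc and Pdk1 are known targets of hypoxia-inducible factors while Scn7a and Esm1 are a leading rise and a leading fall. Each window runs from 250 bases before to 50 after the gene's start in RefSeq (build GRCr8) and is written 5′ to 3′ on the gene's strand. Capitals mark the core of the factors' binding sequence, ACGTG or GCGTG, on either strand (CACGT or CACGC when read on the other), and CACGTG counts as a match on each strand. The windows are chr10:63715294-63715593 (+) for Aldoc, chr3:77113264-77113563 (+) for Pdk1, chr3:71846235-71846534 (−) for Scn7a and chr2:46609003-46609302 (+) for Esm1.
Aldoc: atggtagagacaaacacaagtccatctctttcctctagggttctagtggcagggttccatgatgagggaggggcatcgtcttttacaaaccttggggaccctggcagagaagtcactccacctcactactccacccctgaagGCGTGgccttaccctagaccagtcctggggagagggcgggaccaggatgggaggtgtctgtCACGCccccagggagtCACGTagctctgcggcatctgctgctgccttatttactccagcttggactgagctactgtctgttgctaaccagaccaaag
Pdk1: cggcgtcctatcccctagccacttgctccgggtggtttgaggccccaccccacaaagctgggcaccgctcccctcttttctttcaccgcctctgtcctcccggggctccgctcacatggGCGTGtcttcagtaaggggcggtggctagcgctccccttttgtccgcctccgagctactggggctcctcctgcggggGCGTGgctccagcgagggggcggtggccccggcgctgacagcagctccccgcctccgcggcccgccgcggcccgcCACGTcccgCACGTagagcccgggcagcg
Scn7a: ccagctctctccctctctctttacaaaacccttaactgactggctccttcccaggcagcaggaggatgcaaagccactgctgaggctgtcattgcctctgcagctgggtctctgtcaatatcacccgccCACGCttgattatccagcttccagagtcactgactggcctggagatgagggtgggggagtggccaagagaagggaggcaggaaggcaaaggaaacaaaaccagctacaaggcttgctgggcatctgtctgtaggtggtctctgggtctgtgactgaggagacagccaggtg
Esm1: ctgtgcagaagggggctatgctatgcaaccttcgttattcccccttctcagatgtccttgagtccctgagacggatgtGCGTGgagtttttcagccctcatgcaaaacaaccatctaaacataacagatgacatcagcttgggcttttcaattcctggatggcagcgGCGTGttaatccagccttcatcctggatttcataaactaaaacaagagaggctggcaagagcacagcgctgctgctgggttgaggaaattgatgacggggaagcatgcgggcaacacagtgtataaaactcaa
Aldoc held 3 matches, Pdk1 4, Scn7a 1 and Esm1 2, while the windows of Slc26a10, Npr3 and Lyve1 held 0. Of the largest changes without overlap, 5 of 8 windows of rises and 4 of 9 windows of falls held a match. The core is short and common: it stood in 61.4% of the 7169 windows found for tested genes with a symbol, in 59.9% of 421 windows of genes called higher and in 56.7% of 351 windows of genes called lower. A match is a description of letters and not a binding site.

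Cytotoxic lymphocyte and platelet genes were lower where they changed. Of 11 NK and cytotoxic genes 6 were lower and none higher, with a median of −0.40, and their sum was 127 to 203 CPM (median 159) in IgG libraries and 147 to 297 CPM (median 222) in normoxia. The granzyme Gzma (rCG_44848) had 4.82 to 11.1 CPM (median 8.65) and 10 to 27.4 CPM (median 15) in the IgG and normoxic arms (log2 −0.91 ± 0.15, FDR = 1.6e-04). Gzmk (−0.60 ± 0.13), the chemokine Ccl5 (−0.56 ± 0.11), the receptor chain Il2rb (−0.52 ± 0.11), perforin, Prf1 (−0.50 ± 0.13), and Nkg7 (−0.40 ± 0.12) fell with it. Of 8 platelet genes 4 were lower (Treml1, Clec1b, Pf4 and Nrgn; median −0.46), but run A alone called 0 of them, and 1 was called without male IgG 4, 5 and 6 and female IgG 7. The T cell list had 1 of 15 members called, while edgeR and DESeq2 each called 0 of 14 B cell and 0 of 10 neutrophil genes (2 and 0 at an unadjusted p under 0.05).

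Cytokine genes gave 1 higher and 5 lower of 28. Il33 (rCG_47577) had 202 to 357 CPM (median 269) in IgG libraries and 375 to 541 CPM (median 410) in normoxia, with a gap between the arms. Run A alone called 2 cytokine genes, both lower. Of 13 interferon response genes 3 rose, namely Irf7 (0.58 ± 0.13), Cxcl10 (0.59 ± 0.16) and Usp18 (0.53 ± 0.15), and Irf7 alone was still past the threshold among those 3 without male IgG 4, 5 and 6 and female IgG 7. Thrombomodulin, Thbd, an endothelial anticoagulant, rose by 0.49 ± 0.07 to 1029 to 1608 CPM, against 744 to 1114 CPM in normoxia, while the protein C receptor Procr (−0.72 ± 0.11) and the pathway inhibitor Tfpi (−0.53 ± 0.11) fell.

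Epithelial lists had calls in both directions. In them, 2 of 7 type II cell genes (Etv5 and Sftpa1) and 2 of 12 type I cell genes (Rtkn2 and Hopx) were lower, and edgeR and DESeq2 called 0 of 8 ciliated cell genes (0 at an unadjusted p under 0.05). The mucin Muc5b (0.97 ± 0.25) and Scgb3a1 (0.82 ± 0.22), products of airway secretory cells, were higher and the dehydrogenase Aldh3a1 (−0.38 ± 0.12) was lower, of 12 club and goblet genes. Both of the higher calls were lost without the same 4 IgG libraries (FDR = 0.089 and 0.0933). Of 33 cell cycle genes 2 were called, both of them lower and both inhibitors, Cdkn1a and Cdkn2b. In the zinc list 2 of 14 were lower, the importer Slc39a4 (−0.24 ± 0.07) and the exporter Slc30a5 (−0.20 ± 0.06), and none was called with sequencing run as a term.

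Circadian clock genes divided the IgG libraries themselves. Dbp (rCG_54392), a transcription factor driven directly by the clock, had 198 CPM in male IgG 4, 251 CPM in male IgG 5, 260 CPM in male IgG 6 and 202 CPM in female IgG 7. The other 8 IgG libraries had 7.61 to 32.7 CPM and the 12 normoxic libraries 6.86 to 24.8 CPM. The same 4 libraries had the highest values of Nr1d1 (255 to 326 CPM), Per3 (163 to 211 CPM) and Tef (239 to 357 CPM) and the lowest values of Npas2 (9.57 to 23.9 CPM), which in rhythmic tissues peaks opposite to those genes. In the other 20 libraries Nr1d1 lay between 8.58 and 203 CPM, Per3 between 19.1 and 72.7 CPM, Tef between 91.8 and 187 CPM and Npas2 between 38.5 and 74.5 CPM.

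Between the arms Dbp gave a log2 fold change of 2.60 ± 0.68 (FDR = 0.0146), yet its median was 21.4 CPM in IgG libraries and 9.54 CPM in normoxia, and without the 4 libraries the change was 0.05 (FDR = 0.942). The clock list had 2 higher (Cry2 and Dbp) and 1 lower (Clock) of 13, with a median of 0.40, and 1 higher and none lower without the 4 libraries, with a median of −0.14. The 4 libraries were set apart by these same clock values. The clock results without them were thus bound to shrink and are no check of the change. No source used here gives the time of tissue collection, and the part of the clock in other results was not tested. Glucocorticoid-responsive genes gave 1 higher, the kinase Sgk1 (0.68 ± 0.10), and 4 lower of 12, including the phosphatase Dusp1 (−0.69 ± 0.14), with a median of −0.63, and without the 4 libraries 1 was higher and 6 were lower.

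**Figure D4:**
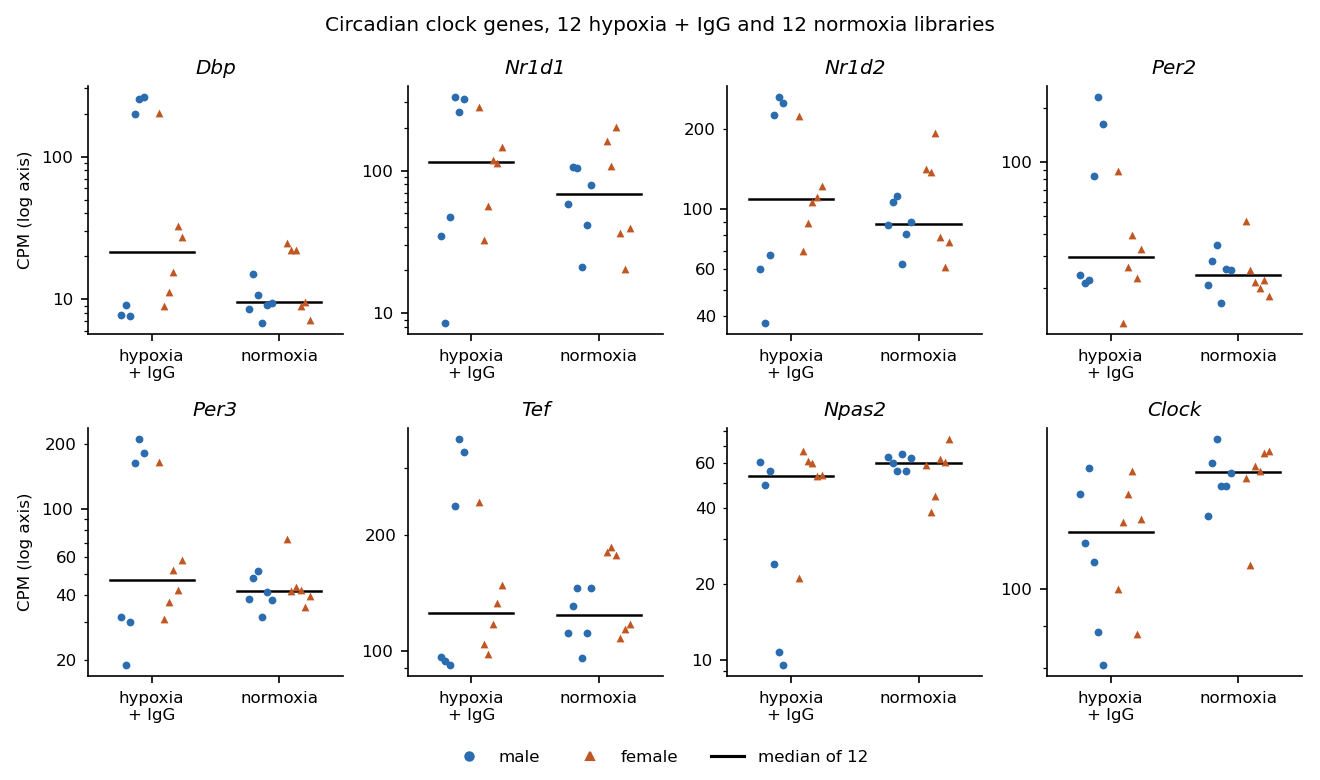
Levels of 8 circadian clock genes in CPM on a log axis, with 1 point per library (circles males, triangles females), hypoxia with IgG at the left and normoxia at the right, and lines at the medians. The 4 IgG points of male 4, 5 and 6 and female 7 stand above the rest for Dbp, Nr1d1, Nr1d2, Per2, Per3 and Tef and below the rest for Npas2.

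Adipocyte genes had the highest median of all lists, 1.26, with 2 of 10 called, Lipe (0.71 ± 0.09) and the brown fat gene Ucp1. Ucp1 (rCG_51684) was at 0 in at least 1 library of each arm and reached 113 CPM in the IgG arm and 3.57 CPM in normoxia, so its fold change rests on few libraries. Without male IgG 6 and female IgG 11, 1 adipocyte gene was called, and DESeq2 called 5 with all libraries. Of 9 cardiac muscle genes edgeR and DESeq2 called 0 (1 at an unadjusted p under 0.05), with a median of 0.59. The cardiac and the adipocyte sum were both highest in male IgG 6, and the part of these tissues in other results was not tested.

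The last question was whether males and females changed alike. The test within males called 451 genes (2.98%, with 288 or 1.9% higher and 163 or 1.08% lower) and that within females 1847 (12.2%, with 1026 or 6.77% higher and 821 or 5.42% lower), and 291 of the 292 genes called in both had the same direction. Of the 1616 genes called over both sexes, 1615 had the same sign in males and females. A call over both sexes favours genes that move the same way in males and females. The agreement among those 1616 is therefore no check that the sexes changed alike. Counts of calls do not show that the sexes differ, and the test of the difference itself called 3 genes (0.0198%), with 2234 at an unadjusted p under 0.05. DESeq2 run on each sex alone called 1112 genes in males and 1233 in females. It called 31 for the difference, and leaving out female normoxia 7 called 38. Females counted 3250 without female normoxia 7 and 1186 without female IgG 7, and males counted 741 without female normoxia 9, in a fit that estimates spread over the 4 groups.

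Spp1 (rCG_37885), which encodes the secreted glycoprotein osteopontin, averaged 22.2 ± 12.6 CPM in IgG males and 4.59 ± 2.1 CPM in normoxic males, against 5 ± 1.03 CPM in IgG females and 6.45 ± 2.07 CPM in normoxic females (SD, n = 6 each). In males the arms were apart, with a lowest IgG value of 11.1 CPM and a highest normoxic value of 7.91 CPM, whereas in females they overlapped. The female change minus the male change was −2.64 ± 0.47 on the log2 scale (FDR = 0.0355). Rgs5 was lower in IgG females instead, with 45 ± 6.35 CPM in IgG females and 86.5 ± 11.2 CPM in normoxic females, against 75 ± 6.67 CPM in IgG males and 84 ± 9 CPM in normoxic males (SD, n = 6 each). Its difference was −0.78 ± 0.14 (FDR = 0.0355). Leaving out 1 library at a time kept the call of Spp1 in 7 of 24 fits and that of Rgs5 in 6, with FDR up to 0.106 and 0.0929.

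An unnamed gene, rCG_27691, kept its call in 24 of 24 such fits. It averaged 72.4 ± 14.1 CPM in IgG females and 42.2 ± 4.85 CPM in normoxic females, and 43.5 ± 4.64 CPM in IgG males and 65.7 ± 16.7 CPM in normoxic males (SD, n = 6 each), a difference of 1.37 ± 0.20 (FDR = 0.00626). Among the next smallest p-values, which did not pass, were Actg2 (0.88 ± 0.18, FDR = 0.141), Cthrc1, a secreted protein of activated fibroblasts (−1.19 ± 0.26, FDR = 0.188), and the IL-33 receptor Il1rl1 (0.70 ± 0.15, FDR = 0.188). Actg2 averaged 64.7 ± 10.2 CPM in IgG females and 31.9 ± 8.16 CPM in normoxic females, and Cthrc1 averaged 9.79 ± 2.12 CPM in IgG males and 4.11 ± 0.691 CPM in normoxic males (SD, n = 6 each). Col1a1 was called in females (log2 1.45, FDR = 0.00265) and not in males (0.28, FDR = 0.814), and the difference between sexes did not pass the test (FDR = 0.271).

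**Figure D5:**
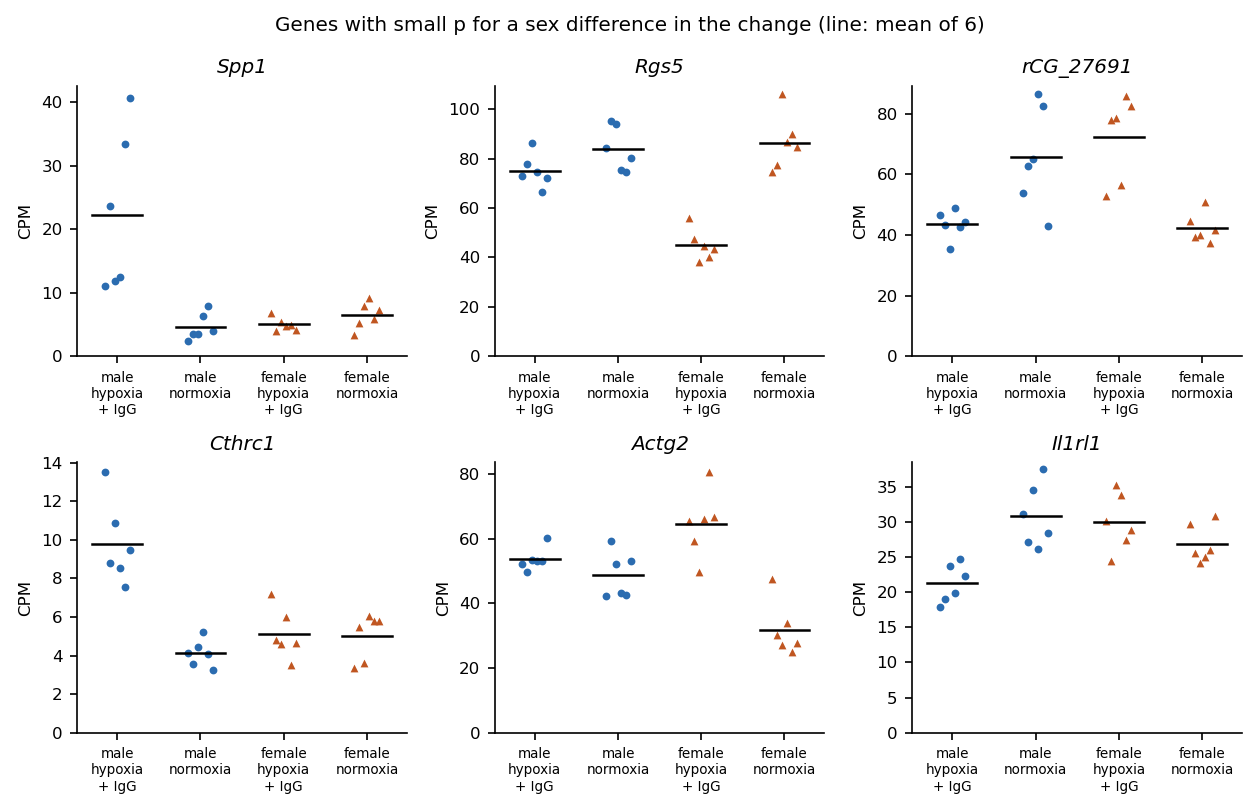
Levels in CPM of 6 genes with small p-values for a sex difference in the change, in males and then females, each with hypoxia with IgG at the left of normoxia, 1 point per library and a line at the mean of 6. Spp1 averages 22.2 CPM in IgG males and 4.59 CPM in normoxic males, Rgs5 averages 45 CPM in IgG females and 86.5 CPM in normoxic females, and rCG_27691 moves in opposite directions in the sexes.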

How the data were processed

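RNA of rat lung was measured in 24 libraries. The authors deposited counts per gene, which are whole numbers, unnormalized, in 1 table for the series, with an information sheet for arm, sex and read file names. The submitters' processing notes name DESeq2 (version 1.24.0). Aligner, counter, strand setting and build were not given in the sources used here, and overlapping or near-identical genes may share counts. Symbols, for 11611 of 27308 genes, and promoter windows came from RefSeq (GRCr8).

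The 15144 genes passing edgeR's low-count filter (filterByExpr) were tested with its quasi-likelihood test (edgeR 4.0.16, R 4.3.3; TMM scaling, robust, sex as a term, Benjamini-Hochberg adjustment). A fit with 4 groups gave the tests within and between sexes. CPM uses TMM-scaled totals. In counts simulated for this comparison, 200 of 15144 genes were changed, and 90.8% of those at a log2 change of 1 and 71% of those at 0.5 were recovered, with 12 false calls. The simulated libraries had no sex or run differences and no outlying library. These figures therefore do not show recovery or false calls where such differences are present.

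The members and lists were chosen with earlier results of these data known. Genes were named by rule: the 12 largest rises and falls without overlap (symbol known, mean 5 CPM or more), the 6 largest called differences in mean CPM in each direction, the 3 smallest p-values of each list with at least 3 called members, and the 6 smallest for the sex difference. Some results of the rule are not reported here. Other genes named were chosen after their values were seen. Alternatives were DESeq2 1.42.0, limma 3.58.1, other filters and scaling, the run and left-out libraries.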

Additional observations from a re-analysis of the deposited data

Results flagged for a closer look

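Within the groups of 6 libraries (sex by arm), 31 of 528 gene and group combinations of named genes had an end library far from the others by Dixon's criterion (5.87%, where chance gives about 1 in 20). Female normoxia 9 held 12 of them: Nes 12.5 CPM, Jag2 11.9, Plvap 454, Cd248 9.46, Tbx2 57.6, Wnt5b 4.44, Dhh 0.792, Kcnk3 2.64, Pfkl 13.6 and Muc5b 4.6 CPM were lower than in the other normoxic females, and Hif1a 163 and Sgk1 147 CPM were higher. The next lowest normoxic female had 52.9 CPM of Pfkl and 144 CPM of Tbx2. Leaving this library out gave 1695 calls in place of 1616.

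Female IgG 7 held 4, with Jag2 120, Emcn 351 and Col3a1 2989 CPM above the other IgG females and Lyve1 43.8 CPM below them. All 4 lie on the side of the change between the arms.

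The remaining ones were scattered. In IgG libraries they were Pdgfd 34.1 and Cox4i2 48.5 CPM in female 11, Dhh 4.82 CPM in female 12, Wnt5b 44.4 and Zbtb46 25.2 CPM in male 2, Tbxa2r 14.8 CPM in male 5, and Kcnk3 30.3 and Itgb6 117 CPM in male 6. In normoxic libraries they were Clec14a 639 CPM in female 12, Ace 2440 CPM in female 7, Clock 107 CPM in female 8, Tgfbr2 697 and Hes1 64.3 CPM in male 4, Adrb1 39.2 CPM in male 5 and Epha4 36 CPM in male 6.

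The change differed between the sexes by edgeR's interaction test for 3 genes: Spp1, by −2.64 on the log2 scale (female −0.36, male 2.28), Rgs5, by −0.78 (female −0.93, male −0.15), and rCG_27691, by 1.37 (female 0.79, male −0.58).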

How the results depend on the processing

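Of 133 named genes (131 called), 131 could be tested in every alternative, and 72 of them kept their direction and their side of the threshold in all 24 fits that left out 1 library and all 13 other alternatives, and no named gene turned its direction. The count of 1616 calls fell to 579 in run A alone, a fit with fewer libraries, and to 437 when tested against a 1.2-fold change, which is a stricter question. Leaving out 1 library gave 1255 (without female IgG 7) to 1695 (without female normoxia 9). DESeq2 called 1917, limma with voom weights 2107, all 36 libraries 1947, and a fit with the run as a term 1273. Leaving out male IgG 4, 5 and 6 and female IgG 7, a choice made after seeing the data, gave 1197 and took 20 named genes below the threshold. The sex difference was called for 31 genes by DESeq2, 1 without a filter on low counts, 1 with the run as a term, and 1 to 38 when 1 library was left out. DESeq2 on each sex alone called 1112 in males and 1233 in females. Within males leaving out 1 library gave 356 to 741. Within females the fit with the run as a term called 1065, and leaving out 1 library gave 1186 to 3250. The cause of these differences was not tested. A replicate block gave 1410 calls. The labels link same-numbered libraries by number only. The correlations of their deviations ran from −0.139 to 0.262 (median 0.08), with 5 of 12 over 0.1, which does not settle whether they are paired. The shallowest library had 6.53 M counts, which limits genes of a few CPM most.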
